A study of Physcomitrium patens with 5 samples.

Results

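The genes described here, from the moss Physcomitrium patens, are defined as parts of the translation machinery or of ribosome biogenesis. By definition they encode ribosomal proteins S4e, S2e and S21e, the initiation factors eIF-3 subunit 1 and eIF-2 beta subunit, and a ribosome biogenesis ATPase. They were taken by gene identifier, and they make up 6 of the 225 genes, and 8 of the 224 regions, in the authors' deposited table of differentially methylated regions. Gametophores, which are the leafy moss shoots, were profiled for DNA methylation by bisulfite sequencing, a method that makes unmethylated cytosines read as thymines. The table sets 4 states, namely moderate dehydration, severe dehydration, partial rehydration and full rehydration, each against the same hydrated gametophores. All plants were grown on BCD medium, and the labels call the moderate state mild in 1 place. Strain, age, and the duration and degree of drying are not given in the labels. Each state had 1 library, so replicate error cannot be estimated for any value, and the depth behind each value is unknown.

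Ribosomes start translation when the small subunit, loaded with initiator tRNA by eIF-2 and held open for mRNA by other factors including eIF-3, finds a start codon and joins the large subunit. In mosses that survive drying, such as Syntrichia ruralis, protein synthesis stops as the plant dries and resumes after rewetting. DNA methylation in P. patens lies mostly on transposable elements, and gene bodies carry little of it. The files hold methylation values only, so the transcripts and proteins of these genes were not analysed here.

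The 6 genes differed in the state in which they were listed and in direction. In drying, 6 of their 7 regions were higher than in the hydrated library and 1 was lower. In rewetting there was a single region, which was lower. By state, 4 of 4 regions were higher in moderate dehydration, where 70.0% of all 30 listed regions were higher. In severe dehydration 2 of 3 were higher, where 54.5% of all 22 were higher, and the other was lower, as were 45.5% of all 22. The region in partial rehydration was lower, as were 87.5% of all 40 listed there, and 0 of the 6 genes were listed in full rehydration, where 56.1% of all 132 regions were higher. In moderate dehydration and partial rehydration, the genes thus lay on the side that held most listed regions of the state. These counts use no further cut on size. With only regions of a log2 size of at least 1.5, 4 of 5 drying regions of the 6 genes were higher. Among all 15 regions of moderate dehydration of that size, 53.3% were higher, which is nearly even. In severe dehydration all listed regions were nearly even, and among the 12 of at least that size only 33.3% were higher.

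Each entry of the authors' deposited table gives a gene part (the body, or 2 kb upstream or downstream), the start and end on a scaffold, and a log2 ratio of methylation levels. The smallest listed ratio is 1 in size (log2), or 2-fold, so a gene that is absent from a comparison had no region past the authors' criteria there, and its level in that state is unknown. The direction of the ratio is not stated in the table. A region on scaffold 439 and another on scaffold 84 had the same ends in 2 comparisons each, and their ratios could share 6 and 2 hydrated levels with the hydrated library as denominator, but 0 with it as numerator. Positive ratios are accordingly taken to mean more methylation than in the hydrated library. All 224 ratios were exact quotients (relative tolerance 1e-09) of whole percents, or, in the 22 regions with a level of 0, of a whole percent and 0.001 on the 0 to 1 scale in place of the 0, so the pairs of levels that could lie behind each ratio can be counted. For every gene except that of S21e several pairs remain, and only the outer limits of the levels are known.

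The small subunit protein genes came from both drying states and did not share a direction. Ribosomal protein S4e (Pp1s119_107V6), a core protein of the small subunit in eukaryotes and archaea, had a pair of overlapping regions in moderate dehydration. In the authors' deposited table, the region assigned to its upstream flank ran from 908104 to 908410 on scaffold 119, with a log2 ratio of 1.70, or 3.25-fold. The region assigned to its body ran from 908306 to 908530, with a log2 ratio of 2.50, or 5.67-fold, in the authors' deposited table. These regions share 105 bases and together span 427, so they are 1 locus and not independent measurements. For the body region, 5 pairs of levels give the ratio, between 17% after moderate dehydration against 3% in the hydrated library and 85% against 15%. For the upstream region there are 7 pairs, between 13% after moderate dehydration against 4% in the hydrated library and 91% against 28%. The hydrated library was therefore at 15% or less in the body region, whichever pair holds. Upstream it was 28% or less, and the level after moderate dehydration exceeded the hydrated level by at least 14 percentage points in the body and 9 upstream.

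Ribosomal protein S2e (Pp1s411_32V6) sits in the small subunit near the channel through which mRNA enters, and it was the one lower gene of drying. The authors' deposited table gave a log2 ratio of -2.17 for a region of 300 bases in its downstream flank, from 204120 to 204419 on scaffold 411, in severe dehydration. This ratio arises from 11 pairs of levels, between 2% after severe dehydration against 9% in the hydrated library and 22% against 99%. The level after severe dehydration was therefore 22% or less. Among the 10 lower regions of that state, 4 had larger ratios in size.

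Ribosomal protein S21e (Pp1s287_34V6), a small subunit protein of eukaryotes, was listed in the same state and the same gene part, with the opposite direction. The authors' deposited table gave it a log2 ratio of 1.31 over 235 bases, from 194507 to 194741 on scaffold 287, in severe dehydration. It is the only region of the 6 genes with a single pair of levels, which were 67% after severe dehydration and 27% in the hydrated library, a difference of 40 points. Of the 12 higher regions of severe dehydration, 4 had larger ratios. The downstream flanks of S2e and S21e thus lay on opposite sides of the hydrated library within 1 state.

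**Figure D1:**
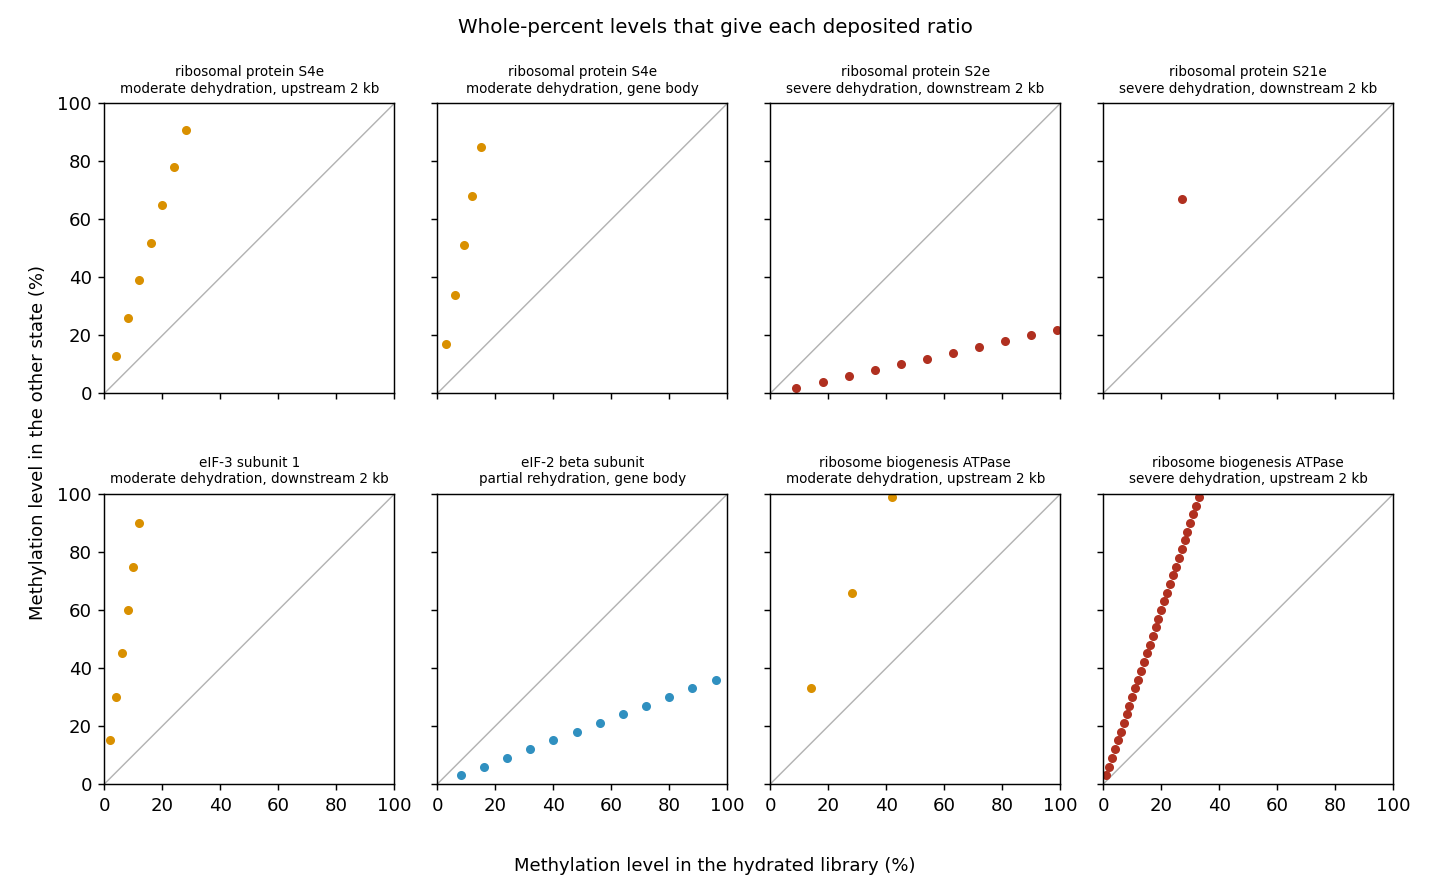
Whole-percent methylation levels that give each deposited ratio of the 6 genes, with the level in the hydrated library on the x axis (%) and that in the compared state on the y axis (%); each point is a possible pair, and the grey line marks equal levels. S21e has a single pair, 67% after severe dehydration and 27% in the hydrated library, while the ATPase gene in severe dehydration has 33 possible pairs.

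The initiation factor genes were listed in different phases, the one in drying and the other in rewetting, with opposite directions. The gene for eIF-3 subunit 1 (Pp1s201_55V6) belongs to the orthology class which in the older human numbering is the loosely bound subunit eIF3j. In the authors' deposited table it had a log2 ratio of 2.91, or 7.5-fold, in a region of 242 bases of its downstream flank in moderate dehydration, from 256903 to 257144 on scaffold 201. This was the highest ratio of the 6 genes, and 2 of the 21 higher regions of moderate dehydration exceeded it. The pairs of levels number 6, between 15% after moderate dehydration against 2% in the hydrated library and 90% against 12%. The hydrated level was therefore at most 12%, and the difference lay between 13 and 78 points. The 7.5-fold ratio thus starts from a low hydrated level, and its size in percentage points is poorly known.

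The gene for eIF-2 beta subunit (Pp1s81_161V6) encodes a part of the complex that brings initiator tRNA to the small subunit, and it was the only gene of the 6 listed in rewetting. In the authors' deposited table its region lay in the gene body, from 967993 to 968329 on scaffold 81, with a log2 ratio of -1.42 in partial rehydration. At 337 bases it was the longest region of the 6 genes. The ratio arises from 12 pairs of levels, between 3% after partial rehydration against 8% in the hydrated library and 36% against 96%. Of the 35 lower regions of partial rehydration, 13 had larger ratios in size, and the median size over all 40 regions of that state was 1.37 on the log2 scale. The value of eIF-2 beta subunit was close to that median.

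The gene defined as a ribosome biogenesis ATPase (Pp1s12_28V6) was the only gene of the 6 listed in 2 or more comparisons, against 16 of all 225 genes. Its orthology class holds an AAA-type ATPase that in yeast is needed to mature the large subunit. In the authors' deposited table, the upstream region had a log2 ratio of 1.24 in moderate dehydration, from 206942 to 207214 on scaffold 12. In severe dehydration the authors' deposited table gave 1.58, or 3-fold, for a region with the same start that ended 33 bases later, at 207247. The gene was thus higher in both drying states at the same place. Both ratios use the same hydrated library, so their common direction is not independent. The moderate dehydration ratio leaves 3 pairs of levels, with 33%, 66% or 99% after moderate dehydration against 14%, 28% or 42% in the hydrated library. The severe dehydration ratio leaves 33 pairs, and its difference lay anywhere between 2 and 66 points. If the hydrated level were the same over both regions, it would be 14% or 28%, with 42% or 84% after severe dehydration. The change between the drying states at this gene could not be tested with 1 library each.

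**Figure D2:**
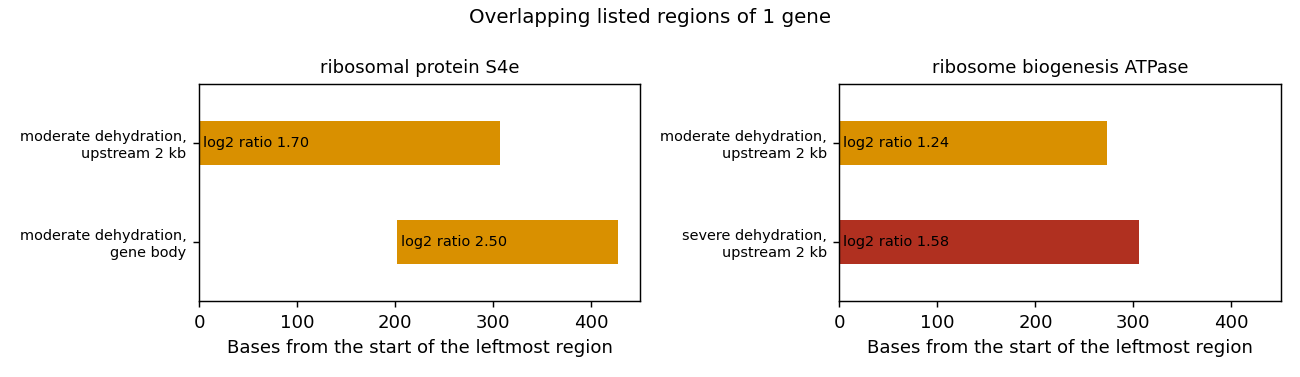
Positions of the overlapping regions of the S4e gene (left) and the ATPase gene (right), in bases from the start of the leftmost region; each bar is a listed region, coloured by state and marked with its log2 ratio over the hydrated library. The S4e regions share 105 bases within moderate dehydration, and the ATPase regions start at the same base in moderate and severe dehydration.

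The ontology terms in the table match the names of 5 of the 6 genes and are mixed for the last. All 3 ribosomal protein genes carry the term for structural molecule activity, and both factor genes carry that for translation factor activity. The ATPase gene carries a term for adenyl ribonucleotide binding, and also terms for hexokinase activity and for a reproductive developmental process, so its identity is not settled by the table. No member region was assigned to a second gene in the authors' deposited table, and 38 of all 224 regions were. With 8 member regions, this was not tested and is not read as a trait of the 6 genes. For 4 of the 6 genes, no other gene of their scaffold was listed. The nearest other listed region lay 93183 bases from the ATPase regions and 935059 bases from that of eIF-2 beta subunit.

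In size and place, the 8 regions are set here beside all 224 regions of the table, which include them. The log2 sizes of the 8 ran from 1.24 to 2.91 with a median of 1.64. The median over all 224 regions was 1.44, and their sizes reached 9.81. The 4 regions of moderate dehydration had a median size of 2.10, against 1.49 over all 30 regions of that state, and the S4e locus supplies 2 of those 4. The 3 of severe dehydration had a median of 1.58, against 1.57 over all 22. Levels are inferred from the ratios and not listed. By the possible pairs of levels, 0 of these 8 regions had a level of 0, against 22 of the 224 regions in either library. The lengths ran from 225 to 337 bases with a median of 286.5, against 201 to 868 bases and a median of 310.5 over all regions. By gene part, 3 lay upstream, 2 in the body and 3 downstream, against 115, 44 and 108 of the 267 gene and region entries of the table. No difference was tested, since regions of 1 pair of libraries are not replicates.

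**Figure D3:**
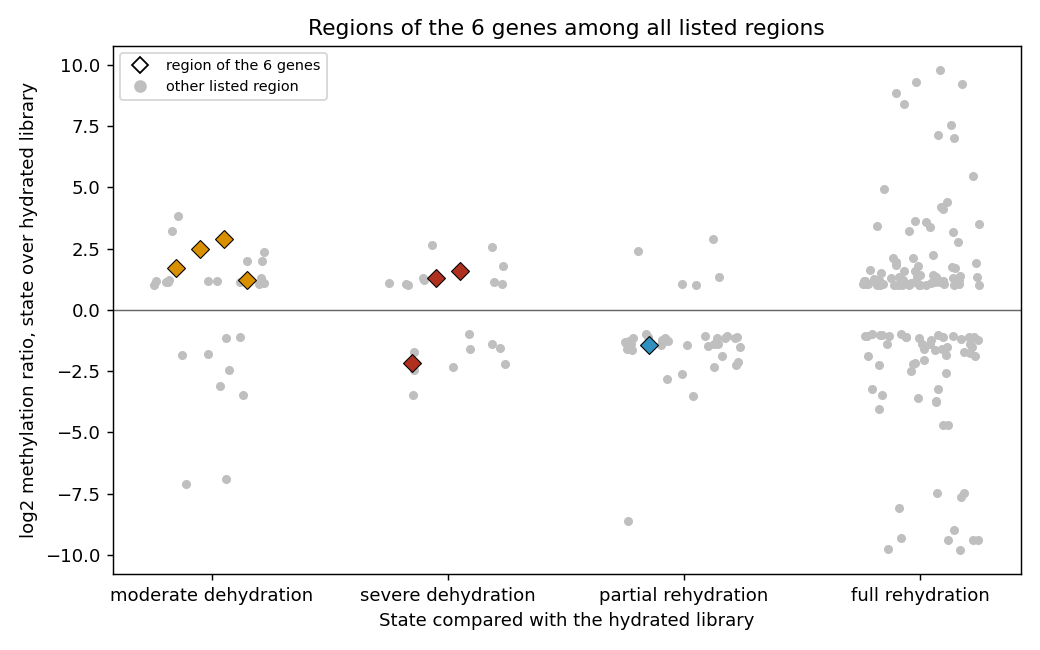
Log2 methylation ratios over the hydrated library (y axis) of all 224 listed regions by state (x axis), with the 8 regions of the 6 genes as diamonds and the others as grey dots, spread sideways for legibility; no region lies between -1 and 1 because the table lists none there. The diamonds lie between -2.17 and 2.91. The grey dots farthest from 0 in the plot as a whole are regions with a level of 0, for which no fold is meaningful. Severe dehydration holds no such region.

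The table also held other genes of the same pathway. A keyword list over the orthology definitions (ribosomal protein, ribosomal RNA, ribosome biogenesis, translation initiation, elongation and release factors, tRNA synthetases, poly(A)-binding and nucleolar proteins) matched 9 genes, the 6 described so far and 3 more ribosomal protein genes. All 3 of these were listed in full rehydration only. Just 86 of the 225 genes of the table have an orthology definition, so the keyword list could not match the rest. Ribosomal protein L14e (Pp1s101_10V6), of the large subunit, had a log2 ratio of 1.91 downstream of the gene, on scaffold 101 from 86106 to 86505, in the authors' deposited table. Ribosomal protein S9e (Pp1s14_31V6), of the small subunit, stood at -1.78 upstream, on scaffold 14 from 173301 to 173747, in the authors' deposited table. Ribosomal protein L24 (Pp1s359_26V6), a large subunit protein whose terms include the plastid stroma, stood at -2.50 upstream, on scaffold 359 from 167106 to 167330, in the authors' deposited table. The L24 level was 15% or less after full rehydration, against a hydrated level between 17% and 85%. L14e was between 15% and 90% after full rehydration, against 4% to 24% in the hydrated library. A gene without orthology definition, Pp1s167_19V6, lies outside the keyword list and was added after its value was seen; it has ontology terms for translation and ribonucleoprotein complex, and the authors' deposited table gave it 1.03 downstream of the gene in full rehydration. For this gene, 49% after full rehydration against 24% in the hydrated library, or 98% against 48%, gives the ratio.

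Between drying and rewetting, the counts of the 6 genes rest on which genes were taken. Of the 6, 5 were listed in drying and 1 in rewetting, and by gene 4 were higher and 1 lower in drying and 1 was lower in rewetting. In moderate dehydration 3 of the 6 genes were listed, where 16.9% of all 225 genes were listed. In severe dehydration the count was also 3 of 6, beside 13.3% of all genes, in partial rehydration 1 of 6 beside 20.4%, and in full rehydration 0 of 6 beside 56.4%. With all 9 genes of the keyword list, 3 were listed in each of moderate dehydration, severe dehydration and full rehydration and 1 in partial rehydration. The absence of the 6 genes from full rehydration is thus set by their choice, since L14e, S9e and L24 have the same kind of definition. Over the 9 genes, 5 were higher and 4 lower, with 4 higher and 1 lower in drying and 1 higher and 3 lower in rewetting. All 225 genes of the table divided into 106 higher and 119 lower, each by the sign of its mean log2 ratio. In drying, 37 of all genes were higher and 28 lower, and in rewetting 74 were higher and 91 lower. The translation genes had a median entry size of 1.78, against 1.39 over all 267 entries. With single libraries and a shared hydrated library, none of these splits could be tested against replicate error.

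**Figure D4:**
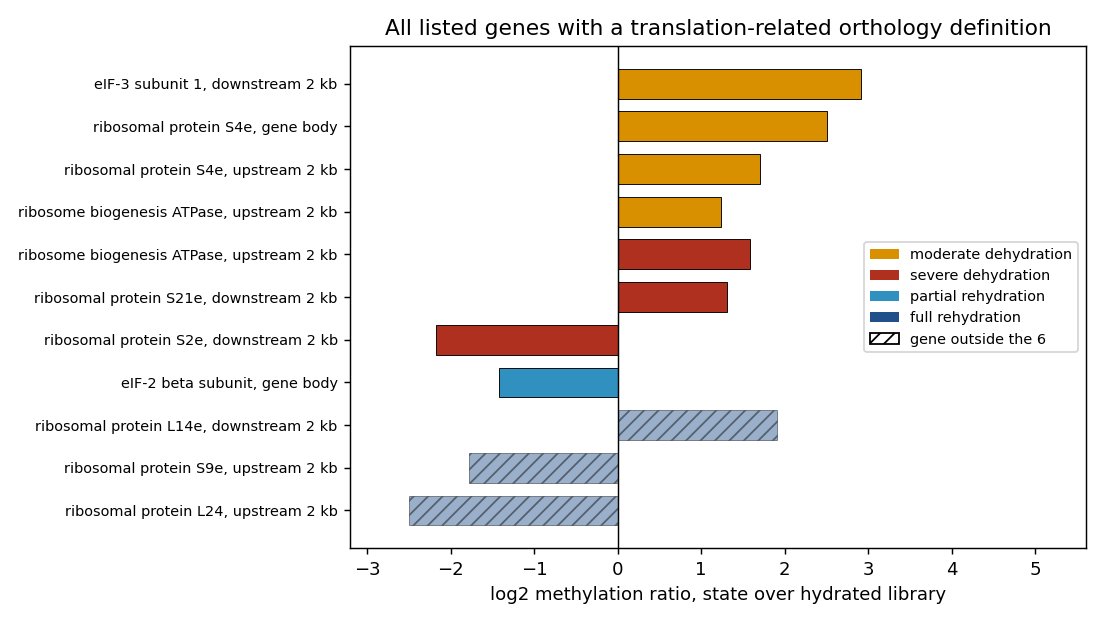
Log2 methylation ratios over the hydrated library (x axis) for every region of the 9 genes with a translation-related orthology definition (y axis), coloured by state, with the 3 genes outside the 6 hatched. The 4 bars of moderate dehydration all point to higher values, while severe dehydration and full rehydration each hold bars on both sides, from -2.50 for L24 to 1.91 for L14e in full rehydration.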

How the data were processed

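Bisulfite libraries of 5 states, 1 per state, were the source of the data. Per the labels' protocols, DNA was sonicated, ligated to methylated adaptors, bisulfite converted, amplified and size-selected. The values used are log2 ratios of methylation levels in the authors' deposited table, which per the file headers packs gene part, start, end, ratio and direction in a text cell for each comparison. The aligner, region caller, thresholds, cytosine context and genome build were not given in the sources used here. Other values in these cells are positions and words, and the deposited coordinates are printed unchanged. All 267 entries had 0 mismatches between sign and direction word and 0 between the column and the comparison named in the cell.

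Cells were parsed with Python 3.11.15. A region shared by several genes was counted a single time in each comparison. In counts of genes, direction was the sign of the mean log2 ratio over the gene's entries, including ratios with a level of 0. Possible levels were found by searching all whole-percent pairs, with a level of 0 as 0.001 on the 0 to 1 scale, a step checked on simulated ratios. The reference gene table matched 0 of the 225 identifiers, so gene ends, strand and sequence were not used here. No test was run, since each state has 1 library. The named genes are the 6 genes, the rest of the keyword list and any gene sharing their regions (there was none). Pp1s167_19V6 and Pp1s34_86V6 fall outside this rule and were named after their values were seen. Members and lists were chosen with earlier results of these data known.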

Additional observations from a re-analysis of the deposited data

How the results depend on the processing

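With only regions of a log2 size of at least 1.5, 4 of 5 drying regions of the 6 genes were higher. At that size, 53.3% of all 15 regions of moderate dehydration and 33.3% of all 12 of severe dehydration were higher. The single rewetting region of the 6 genes dropped out, so that setting gave no value there. Counting each gene once gave 4 of 5 in drying and 0 of 1 in rewetting. All genes of the table divided into 37 higher and 28 lower in drying, and 74 higher and 91 lower in rewetting. Merging overlapping regions, a setting chosen after seeing the data, gave 5 of 6 in drying. Without merging, 63.5% of all 52 drying regions were higher. Of the 9 genes of the keyword list, 5 were higher, also with the keywords searched in ontology terms. Over all 225 genes of the table, 106 were higher and 119 lower. At the size of 1.5 the keyword list gave 4 of 7, and with the ontology word translation added, chosen after seeing the data, 6 of 10. For all regions of severe dehydration, the share higher was 54.5%, and 33.3% of 12 regions at a size of 1.5, so most of the larger regions there were lower. In moderate dehydration it was 70.0%, and 53.3% at that size, in partial rehydration 12.5% and 15.4%, and in full rehydration 56.1% and 48.6%. Counting every gene and region entry, or leaving out regions with a level of 0, gave 66.7% and 75.0%, 53.1% and 54.5%, 12.2% and 12.8%, and 57.8% and 58.4% for moderate dehydration, severe dehydration, partial rehydration and full rehydration in that order. No paired analysis was possible because each state had 1 library. Whether the authors' criteria for listing a region included a test is not known from the sources used here. Depth is unknown, and a low level such as 2% may rest on few reads.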

Other observations

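A gene outside the keyword list also acts in translation, and it is named here after its value was seen. Pp1s34_86V6 is defined as cytoplasmic tRNA 2-thiolation protein 2, which in yeast takes part in modifying the wobble base of tRNAs. In the authors' deposited table its upstream flank stood at -1.23 in full rehydration, on scaffold 34 from 449851 to 450395. A single pair of levels gives this ratio, 35% after full rehydration and 82% in the hydrated library.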
